A study of Drosophila melanogaster with 48 samples.

Results

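Brains of young flies (Drosophila melanogaster, week 0) that carry either of 2 changes in Naglu were compared with each other: W422X, named for a stop codon, and Y160C, named for an amino acid change. The 12 libraries were chosen by their labels, 6 per genotype with 3 from females and 3 from males, of 48 libraries in the series, and each held the pooled RNA of 20 brains. The labels name no driver, transgene or other allele in either genotype, and only 1 line carries each allele, so an allele and its line cannot be told apart. Levels in 2 further genotypes at week 0, the knockout (NAGLU KO) and WG2, which has no Naglu change among its labels, are given beside the comparison, with 6 libraries each. Whether the pools of one group came from separate crosses is not stated, so a p-value measures the spread between pools of brains.

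Naglu encodes a lysosomal glucosaminidase that acts on heparan sulfate, a sugar chain of the cell surface and matrix that other lysosomal hydrolases take apart step by step. In people its deficiency causes mucopolysaccharidosis IIIB, a childhood disease of the brain in which heparan sulfate builds up. Small nucleolar RNAs (snoRNAs), the other class of gene described at length here, mostly lie in introns of host genes, many of them encoding ribosomal proteins. Those of the H/ACA class guide the change of uridine to pseudouridine in ribosomal RNA, and those of the C/D class guide methylation.

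Levels are CPM, read counts scaled to library size, with TMM factors and are compared between genotypes for the same gene. Differences are log2 fold changes of W422X minus Y160C ± SE, from edgeR's quasi-likelihood test with sex as a term, and calls are genes whose p, adjusted over all genes tested by Benjamini-Hochberg, was under 0.05. Every adjusted p is from this test unless another is named. Total counts ran from 14010548 (W422X female replicate 2) to 55801160 (Y160C male replicate 2).

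Neuronal and glial markers were present in every library. Summed over 26 neuronal markers, W422X libraries held 31880 to 38860 CPM and Y160C libraries 29770 to 37660 CPM. Summed glial markers (24) had 4362 to 9407 CPM in W422X and 4720 to 5738 CPM in Y160C. Of the 24, 20 had a log2 fold change above 0, beside 5666 of all 13318 genes tested. The highest glial sums were in W422X male replicate 1 (9407) and W422X female replicate 1 (6665). The glial transcription factor gene repo had 145.1 to 198.4 CPM over the 12 libraries. Summed haemocyte and fat body markers (32) had 3817 to 5205 CPM in W422X and 2584 to 5995 in Y160C, overlapping in females (4956 to 5205 against 4013 to 5995) but not in males (3817 to 4884 against 2584 to 3473). The part of glial, haemocyte and fat body markers in the results was not tested. Phototransduction genes leaned to W422X, with a summed level of 8634 to 10140 CPM in W422X and 6831 to 8946 CPM in Y160C, so the ranges overlapped. In pooled brains, fewer cells of a type and less RNA per cell cannot be told apart. Genes that are near 0 in the series as a whole (a median under 0.1 CPM, 2453 genes) took 41.85 to 121.8 CPM in 9 libraries but 223.6 in W422X female replicate 3, 380.4 in Y160C male replicate 2 and 312.3 in Y160C male replicate 3. W422X female replicate 3 also had 136.6 CPM of the muscle myosin gene Mhc, against 3.6 to 20.02 in the other libraries. Counts are given below with and without these 3 libraries and with phototransduction as a covariate.

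W422X brains had less Naglu RNA than Y160C brains, lower levels of a set of H/ACA snoRNAs and a different level of a small set of genes that lie mostly on chromosome 2. Of 13318 genes tested, 60 were called (0.451%), 24 higher in W422X (0.18%) and 36 lower (0.27%), and 30 of them differed at least 2-fold. An unadjusted p under 0.05 was found for 929 genes. All 6 libraries of one genotype lay above all 6 of the other for 45 of the 60, against 67 of all genes tested (0.503%). When the number in the sample description was added as a term, 27 genes were called, 25 of them among the 60. This term, called the description-number pairing below, joined the females and males of one number. Some numbers occur in a single genotype, and libraries with these numbers add nothing to the genotype difference under this term. The pairing thus compares fewer libraries, and a call lost to it, here or below, cannot be told apart from lost precision. Without the 3 libraries with high signal on low genes 18 were called, and with phototransduction as a covariate 20, all of them among the 60. The phototransduction level leaned with genotype, so a call lost to this covariate cannot be told apart from lost precision. With the signal on low genes as a covariate the count was 73, which held 59 of the 60. The 60 genes kept their direction in every alternative run, and 15 of them were called in all of these. These runs used all or part of the libraries from which the 60 were called, so the kept direction was largely set by the selection.

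Naglu itself was lower in every W422X library. Naglu (FBgn0014417, 2L:8408888-8411868, minus strand, BDGP6.54) stood at 4.55 CPM in the lowest W422X library, 5.50 at the median and 6.27 in the highest. In Y160C the lowest, median and highest libraries had 17.5, 19.8 and 22.2 CPM. The groups were far apart, and the W422X mean was 3.71-fold lower (-1.89 ± 0.08, adjusted p 2.08e-09). These levels rest on 64 to 113 reads per W422X library and 328 to 1208 per Y160C library. WG2 had 23.1 ± 3.24 CPM (SD, n = 6) and KO 2.10 ± 0.83 CPM. The difference was alike in females (-1.91) and males (-1.87).

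The rest of the heparan sulfate pathway showed no call. Among 9 listed genes of its lysosomal degradation, Naglu was the single gene called, and the other 8 lay between -0.16 and 0.13 (edgeR adjusted p at least 0.874, with 0 under an unadjusted p of 0.05 and 0 called by DESeq2 or limma-voom). These include Sgsh, the sulfamidase (0.13), Ids, the iduronate sulfatase (-0.10), Idua, the iduronidase (-0.04), Hgsnat, the acetyltransferase that acts just before Naglu (0.00), and betaGlu, a glucuronidase (-0.16). Of 20 tested genes for heparan sulfate synthesis and core proteins edgeR called 0, with a median of 0.06 beside -0.03 over all genes tested. Among them 3 had an unadjusted p under 0.05 and 0 were called by DESeq2 or limma-voom. The 6 genes next to Naglu on the chromosome lay between -0.10 and 0.05.

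A pair of lysosomal genes was higher in W422X. CtsL2, named for the cysteine protease cathepsin L (2R:13836419-13839363), had 3.34, 5.29 and 7.74 CPM in the lowest, median and highest W422X libraries. The corresponding Y160C values were 0.596, 0.802 and 2.01 CPM. The groups did not overlap (2.21 ± 0.30, adjusted p 0.00291), and the mean was 0.81 ± 0.38 CPM in WG2 and 4.76 ± 1.05 CPM in KO. Npc2g, of the sterol-binding NPC2 family, overlapped between the groups at 2.70 to 6.27 CPM in W422X and 1.03 to 2.89 in Y160C (1.29 ± 0.26, adjusted p 0.0432), with 4.20 ± 1.17 CPM in WG2. Its call was lost with the description-number pairing (adjusted p 0.0502), in 5 other alternatives and when any of 9 of the 12 libraries was left out (adjusted p up to 0.9996). These were 2 of 40 tested lysosomal hydrolases and membrane proteins (5%, beside 0.451% of all genes tested), whose median was 0.00. Of 25 genes of the vacuolar proton pump and of 27 autophagy genes edgeR, DESeq2 and limma-voom called 0, with medians of 0.09 and 0.06 and an unadjusted p under 0.05 for 5 and 3 genes.

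**Figure D1:**
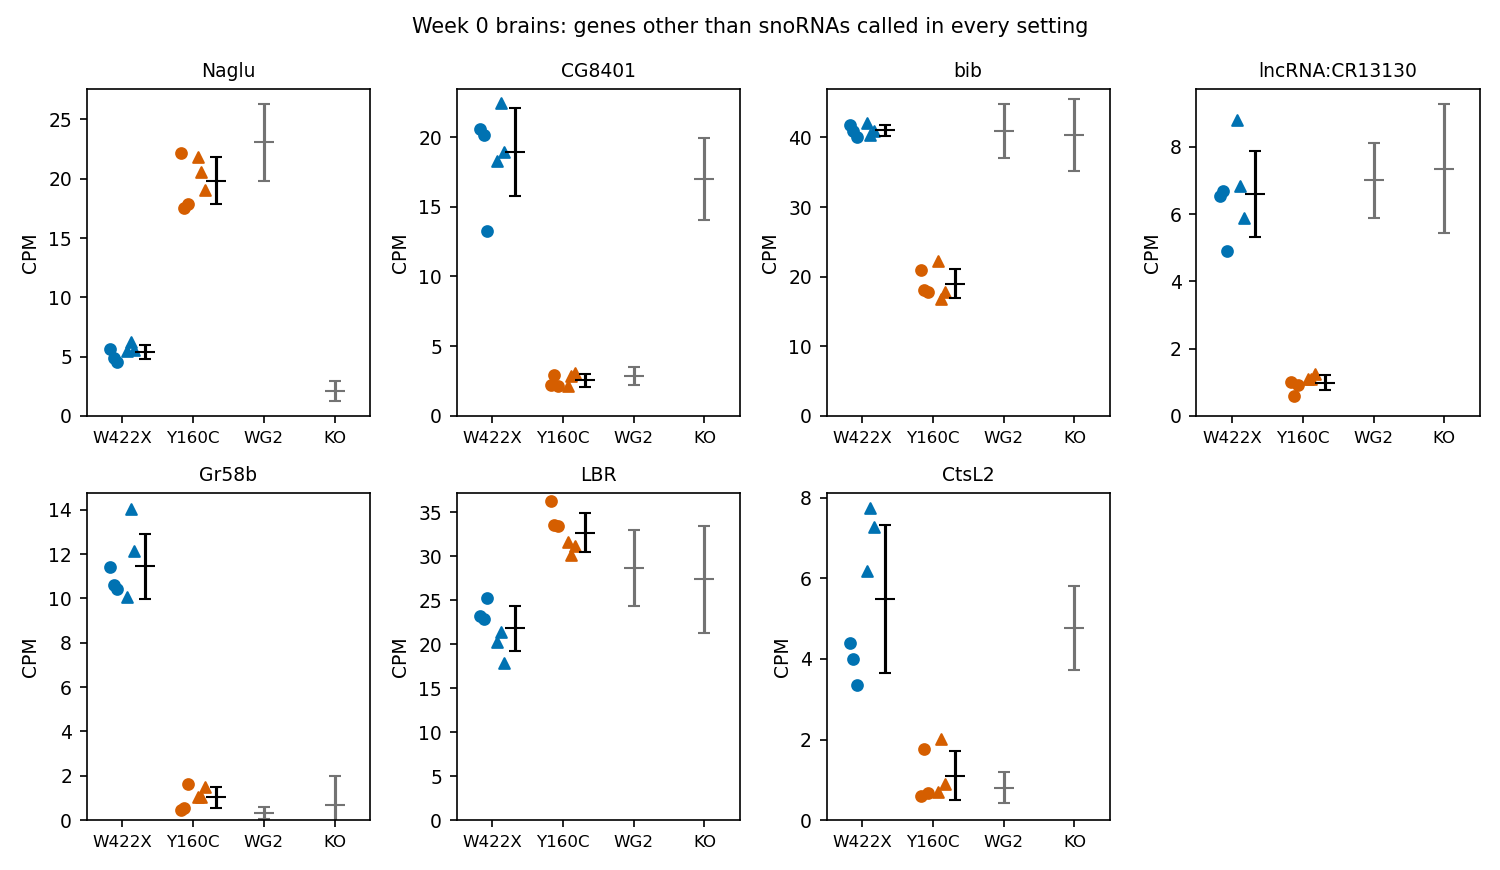
Level of 7 genes other than snoRNAs that were called in every alternative, in CPM (vertical axes, each from 0), at week 0. Points are libraries (circles, females; triangles, males), with the mean ± SD of 6 libraries in black for W422X and Y160C and in grey for WG2 and KO. W422X and Y160C libraries do not overlap in any panel.

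Among genes other than snoRNAs, the called genes with the smallest p lay on both arms of chromosome 2. CG8401 (2R:16028603-16030091) had 13.3, 19.5 and 22.4 CPM in the lowest, median and highest W422X libraries and 2.11, 2.52 and 3.07 CPM in those of Y160C. Every W422X library was thus above every Y160C library (2.86 ± 0.13, adjusted p 1.10e-08). KO, at 17.02 ± 2.93 CPM, was near W422X, and WG2, at 2.84 ± 0.64 CPM, was near Y160C. Gr58b, a gustatory receptor gene (2R:21978215-21979677), had 10.1 to 14.01 CPM in W422X and 0.459 to 1.65 CPM in Y160C (3.45 ± 0.23, adjusted p 1.55e-06). It was low at week 0 in WG2 (0.33 ± 0.28 CPM) and in KO (0.70 ± 1.28 CPM), where the highest library had 3.30 CPM. It was the single call among 132 tested odorant binding protein and chemoreceptor genes (0.758%, near the 0.451% of all genes tested).

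At another locus it was Y160C that stood apart from the other genotypes. The neurogenic gene bib (big brain, 2L:9984645-9995538), which encodes a membrane channel protein of the aquaporin family, had 40.04, 40.9 and 42.1 CPM in the lowest, median and highest W422X libraries. In Y160C it had 16.8, 18.01 and 22.2 CPM (1.11 ± 0.06, adjusted p 5.77e-08). WG2 (40.9 ± 3.83 CPM) and KO (40.3 ± 5.198 CPM) were at the W422X level. The antisense neighbour lncRNA:CR13130 (2L:9983671-9984743), which overlaps the start of bib by 99 bases, went with it, at 4.92 to 8.78 CPM in W422X and 0.588 to 1.24 CPM in Y160C (2.71 ± 0.16, adjusted p 1.65e-07). The strand setting of the counting was not given, so reads from the shared bases cannot be assigned to either gene.

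LBR, which encodes the lamin B receptor of the inner nuclear membrane, was lower in W422X at 17.9 to 25.3 CPM against 30.2 to 36.2 in Y160C (-0.60 ± 0.06, adjusted p 0.000171), with WG2 between them at 28.7 ± 4.31 CPM. It was named after its values were seen, as one of the 15 genes called in all alternatives. Higher in W422X were also the serpin gene Spn27A (0.88), CG12898 (1.01), lncRNA:CR43605 (1.12), babos (0.87), CG30403 (0.75) and slmo, a mitochondrial PRELI family gene (0.80). Each of these 6 lost its call with the description-number pairing, where the adjusted p was 0.319 for Spn27A, 0.415 for CG12898, 0.0995 for lncRNA:CR43605, 0.158 for babos, 0.150 for CG30403 and 0.351 for slmo. Each also lost it without the 3 libraries with high signal on low genes, and adjusted p reached 0.9995 over the alternatives (slmo). Their log2 fold changes stayed between 0.58 and 1.27 in all of these. Leaving out a single library ended the call of slmo for 8 libraries, of CG12898 for 8, of babos for 6 and of CG30403 for 11, and of Spn27A and lncRNA:CR43605 for none. Spn27A lies wholly within cup and CG34310 on the other strand, CG12898 wholly within SLO2, slmo almost wholly within CG34179, lncRNA:CR43605 wholly within CG33144 on the other strand, and CG30403 shares its whole length of 1719 bases with HmgD on the other strand. On 140 bases babos overlaps CG13506. Reads from such overlaps cannot be assigned.

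Some further calls were members of lists of brain and body functions. Each was 1 gene of its list, which is 2.56% of neuropeptide and hormone genes, 3.12% of immune effector genes and 3.45% of UDP-glycosyltransferase genes. Over all genes tested the share was 0.451%. In the neuropeptide and hormone list DESeq2 also called Orcokinin, named after its values were seen. Dsk, the gene of the cholecystokinin-like peptide drosulfakinin, was the single call among 39 neuropeptide and hormone genes, at 46.8 to 77.5 CPM in W422X and 70.2 to 92.4 in Y160C (-0.48 ± 0.07, adjusted p 0.00291). BaraC, of the baramicin antimicrobial peptide family, was the single call among 32 immune effector genes, at 4.71 to 7.45 CPM against 8.24 to 12.7 (-0.78 ± 0.14, adjusted p 0.0150), and WG2 had 13.3 ± 2.64 CPM. Ugt49C1 was the single call among 29 UDP-glycosyltransferase genes, at 5.61 to 9.21 CPM against 7.32 to 13.02 (-0.60 ± 0.12, adjusted p 0.0374). Without the 3 high libraries none of these 3 genes was called, and over all alternatives adjusted p rose to 0.609 for Dsk, 0.404 for BaraC and 0.982 for Ugt49C1. BaraC lost its call when W422X male replicate 3 was left out, and Ugt49C1 when any of 9 libraries was.

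In 21 lists, with 600 tested entries, edgeR and limma-voom called 0 genes. DESeq2 called 3 there, FASN1, Eaat2 and Act79B (named after their values were seen), and an unadjusted p under 0.05 was found for 0 to 15 genes per list. Among all 13318 genes tested 5666 had a log2 fold change above 0 and 7652 under 0. Of 35 phototransduction genes 31 had a log2 fold change above 0, with a median of 0.34, and of 12 mitochondrial genome genes 12 did, with a median of 0.26. Nuclear respiratory chain genes (83 tested) had a median of 0.12, neuronal markers (26) of 0.09, cytosolic ribosomal protein genes (81) of 0.01, and heat shock and stress proteins (21) of -0.09. Lists of genes foreign to the brain differed in direction. Muscle markers had a log2 fold change above 0 for 15 of 19 (median 0.18), and haemocyte and fat body markers for 17 of 30 (median 0.05). Summed muscle markers leaned the other way at the median, with 311.6 CPM in W422X and 356.5 in Y160C. W422X female replicate 3 alone had 793.8 CPM of them. All 16 tested germ line markers had a log2 fold change under 0 (median -0.31), as had 17 of 23 digestive tract markers (median -0.45) and 5 of 5 tested Y-linked genes (median -1.67). The highest germ line sums were in Y160C male replicates 2 and 3 (72.64 and 68.82 CPM). The same 2 libraries had the highest Y-linked sums (32.31 and 12.87 CPM). The signal on low genes was above 200 CPM in 2 Y160C libraries and 1 W422X library, and its part in these leanings was not tested.

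The 36 called genes other than snoRNAs were spread unevenly over the chromosomes. On chromosome 2, 32 of 5050 tested genes were called (0.634%), 12 of 2458 on arm 2L (0.488%) and 20 of 2592 on 2R (0.772%). Chromosome 3 held 4 of 5737 (0.0697%), which were mthl8 on 3L and Dsk, cher and Npc2g on 3R. edgeR called 0 of 2092 on the X and 0 of 103 on chromosome 4, where 108 and 12 had an unadjusted p under 0.05, DESeq2 called 2 (if and baz, named after their values were seen) and 0, and limma-voom 0 and 0. Over all chromosomes 36 of 13174 were called (0.273%). Within 1 Mb of Naglu on 2L, 2 of 229 tested genes were called (0.873%), Naglu and CG18661 (11.1 to 17.2 CPM in W422X and 8.46 to 10.02 in Y160C, 0.58 ± 0.09, adjusted p 0.00458, and 0.0858 with the description-number pairing). Chromosome 2 held 61 of the 73 such genes called by DESeq2, 13 of 16 with the description-number pairing, 10 of 10 without the 3 high libraries and 10 of 10 with the phototransduction covariate. The chromosome 2 genes lay from 2L:4189340 to 2R:23844763 and did not form a single block, but they were not evenly spaced. Called genes, snoRNAs included, at most 200 kb from the next were taken as a run. The largest runs held 6 genes (2R:21215435-21379464, with snoRNAs of dom among them) and 5 genes (2R:21631421-21724055). Whether such runs exceed an even spread was not tested.

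**Figure D2:**
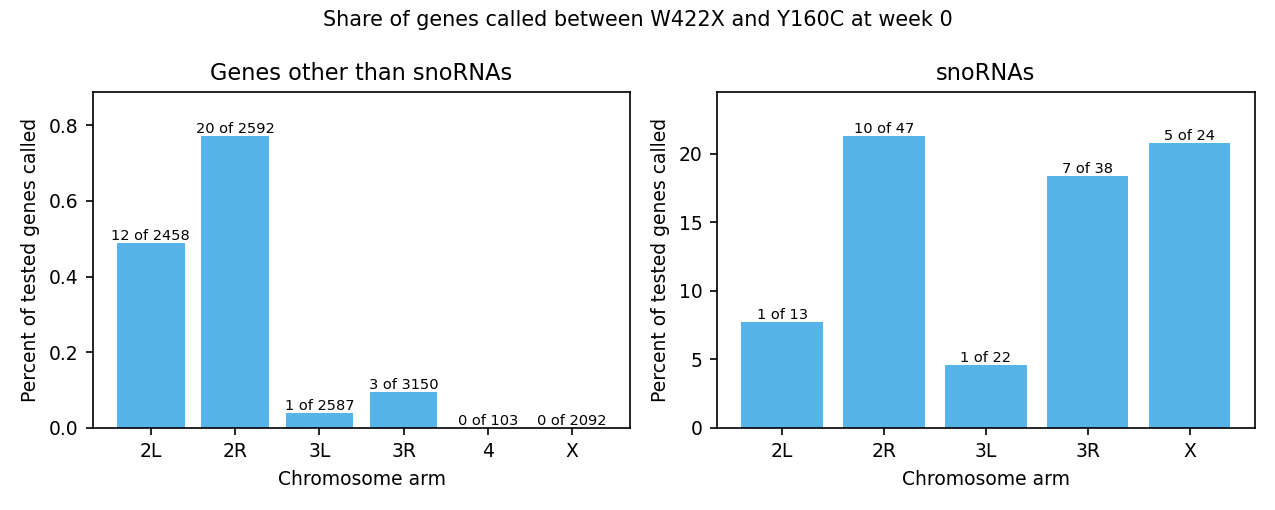
Percent of tested genes called between W422X and Y160C at week 0 (vertical axes, from 0, on different scales) by chromosome arm, for genes other than snoRNAs (left) and for snoRNAs (right), with the counts above the bars. Genes other than snoRNAs were called at 0.488% on 2L and 0.772% on 2R and at under 0.1% elsewhere, while called snoRNAs were found on all 5 large arms.

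The snoRNAs made the other large group, with 24 of 144 tested called (16.7%, beside 0.451% of all genes tested), 23 of them lower in W422X. Among H/ACA pseudouridylation guides 21 of 89 were called (23.6%) and among other snoRNAs 3 of 29 (10.3%). edgeR, DESeq2 and limma-voom called 0 of 14 methylation guides, and 0 of these had an unadjusted p under 0.05. The median was -0.39 over these methylation guides, with 11 of 14 under 0, and -0.32 over the pseudouridylation guides, with 72 of 89 under 0. Of all 13318 genes tested 7652 lay under 0. The 23 lower snoRNAs ranged from -3.22 to -0.88 with a median of -1.27, and for 16 of them the genotypes did not overlap. Unlike the other genes they were found on every large arm, with 10 of 47 called on 2R, 7 of 38 on 3R, 5 of 24 on X, 1 of 13 on 2L and 1 of 22 on 3L. The snoRNA share of all counts was 0.061% to 0.195% in W422X and 0.106% to 0.173% in Y160C. The overlap came from W422X female replicate 2 (0.195%) alone, since the other W422X libraries had 0.061% to 0.101%. In males the share was 0.061% to 0.091% in W422X and 0.106% to 0.149% in Y160C. With the description-number pairing 11 snoRNAs were called, 10 of them lower, and without the 3 high libraries 8, all lower.

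The smallest p of all genes belonged to snoRNA:Psi28S-3436a (X:6742686-6742826), a guide for the large ribosomal RNA within RpL17. It had 15.1, 23.7 and 35.4 CPM in the lowest, median and highest W422X libraries and 88.4, 118.4 and 148.2 CPM in those of Y160C. The groups were well separated (-2.34 ± 0.08, adjusted p 6.09e-10). WG2 (22.2 ± 4.56 CPM) and KO (24.6 ± 5.83 CPM) lay at the W422X level. In the same host, snoRNA:Psi28S-3436b (-2.07 ± 0.24, adjusted p 0.00256) and snoRNA:Psi28S-1060 (-1.33 ± 0.16, adjusted p 0.00287, and 0.0605 with the description-number pairing) were lower as well, and RpL17 itself stood at 0.06 ± 0.08.

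The other hosts of called snoRNAs were not called either. Of the 24 called snoRNAs 23 lie within a host gene, 11 hosts in all, and 0 of these hosts were called by edgeR, DESeq2 or limma-voom. The hosts' log2 fold changes were -0.21 to 0.12, and 3 had an unadjusted p under 0.05. Reads of a host's intron that cover a snoRNA cannot be told apart from reads of the snoRNA itself in these counts. In RpS16, snoRNA:Psi28S-1175a had 3.57 to 9.30 CPM in W422X and 17.8 to 24.9 in Y160C (-2.06 ± 0.17, adjusted p 4.77e-05), and snoRNA:Psi28S-1175b was at -1.58 ± 0.27 (adjusted p 0.0248, and 0.0576 with the description-number pairing). In kra, snoRNA:Psi28S-3385a was at -1.54 ± 0.22 (adjusted p 0.00302, and 0.0505 with that pairing). Of the other ribosomal protein genes, RpS7 held 3 lower snoRNAs of 7 tested, RpS5a 2 of 13 and RpS4 1 of 3. Among genes of RNA-binding proteins, Hrb98DE held 3 of 7, pAbp 2 of 3 and SC35 1 of 2, and in lola, a transcription factor gene, it was 1 of 4. The description-number pairing ended 9 of these 13 calls. They were both in RpS5a (snoRNA:Psi18S-1854b, adjusted p 0.0578, and snoRNA:Psi18S-1854a, 0.0796), that in RpS4 (snoRNA:Psi28S-3327a, 0.210) and 2 of 3 in RpS7 (snoRNA:Psi18S-1377b, 0.353, and snoRNA:Psi18S-1377e, 0.341). The others were 2 of 3 in Hrb98DE (snoRNA:Psi28S-3405a, 0.445, and snoRNA:Psi28S-3305a, 0.325), 1 of 2 in pAbp (snoRNA:Psi18S-1347b, 0.190) and that in lola (snoRNA:lola-b, 0.275). The remaining 44 tested snoRNAs of the 11 hosts were not called, and 36 of them had a log2 fold change under 0.

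**Figure D3:**
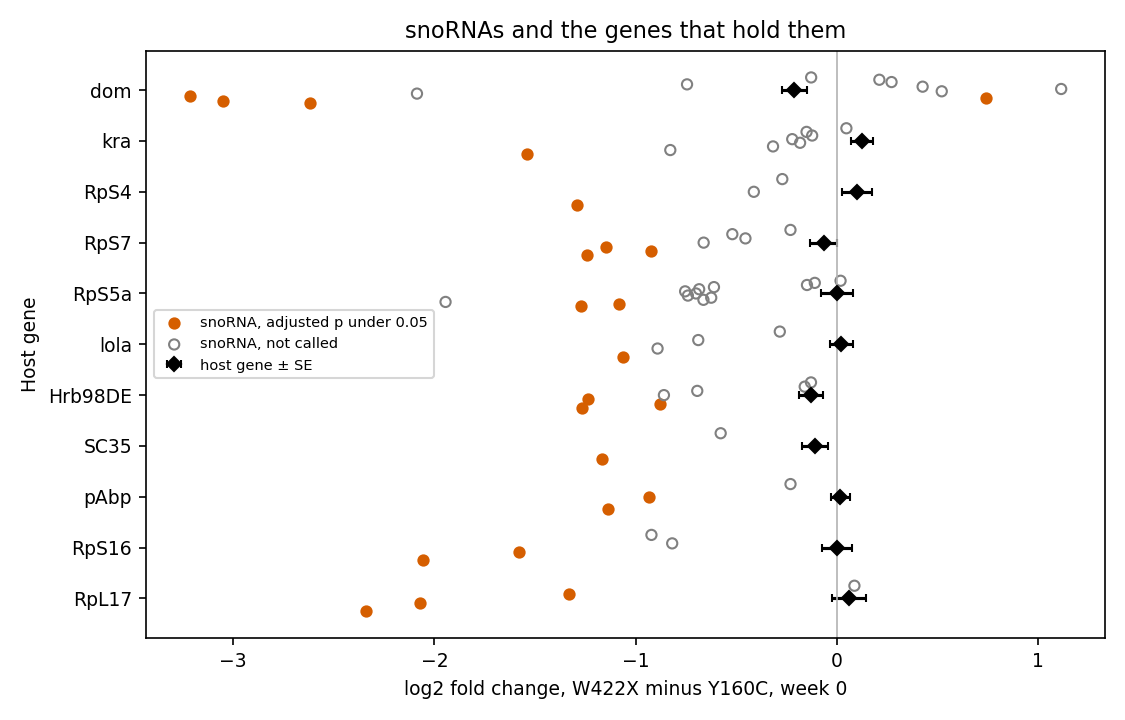
Log2 fold change of W422X minus Y160C at week 0 (horizontal axis) for each tested snoRNA (circles, filled where called) and for its host gene (diamonds with SE), by host gene (vertical axis), for the 11 hosts of called snoRNAs. The hosts lie between -0.21 and 0.12, while their called snoRNAs, apart from 1 in dom, lie between -3.22 and -0.88.

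The host dom, a chromatin remodelling gene, held snoRNAs that differed in both directions. A run of 3 neighbours within 440 bases of 2R:21330276-21330715 was lower in W422X. The first, snoRNA:Psi18S-841b, had 0.562, 1.003 and 1.20 CPM in the lowest, median and highest W422X libraries and 4.18, 5.63 and 7.43 in those of Y160C (-2.62 ± 0.18, adjusted p 1.22e-06). The next, snoRNA:Psi28S-3316d, had 0.307 to 0.725 CPM against 2.33 to 6.20 (-3.05 ± 0.28, adjusted p 4.05e-05). The last, snoRNA:Psi18S-841c, was at or near 0 in W422X, at 0 to 0.267 CPM against 0.962 to 1.80 in Y160C (-3.22 ± 0.53, adjusted p 0.0104), and lost its call in 3 alternatives (adjusted p up to 0.101). In the same gene snoRNA:Psi18S-1389b (2R:21334145-21334299) was the single snoRNA that edgeR called higher in W422X, at 6.40 to 10.7 CPM against 3.70 to 5.78 (0.74 ± 0.10, adjusted p 0.00291). Its call was lost with all 48 libraries in the fit (adjusted p 0.0948), without the 3 high libraries (0.0595) and with the phototransduction covariate (0.103). Over all snoRNAs tested 35 of 144 had a log2 fold change above 0.

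WG2 gives another level beside the alleles. At week 0 the test against WG2 called 45 of 14020 genes in W422X (0.321%) and 51 in Y160C (0.364%), and both share the WG2 libraries. For the 23 lower snoRNAs the median log2 fold change against WG2 was -0.05 in W422X, 1.35 in Y160C and 0.08 in KO. These were chosen for being higher in Y160C than in W422X, and over all 144 tested snoRNAs the medians were -0.07 in W422X and 0.18 in Y160C. Thus snoRNA:Psi28S-1175a had 4.86 ± 1.84 CPM in WG2, near the 5.19 ± 2.18 CPM of W422X, while Y160C had 21.1 ± 3.03 CPM. For the run of 3 in dom, WG2 lay between the alleles, whereas for snoRNA:Psi18S-1389b it lay below both, at 3.39 CPM beside 4.78 in Y160C and 8.11 in W422X. In the run, snoRNA:Psi18S-841b had 2.13 ± 0.73 CPM in WG2, so W422X was at -1.21 (adjusted p 0.0416) and Y160C at 1.41 (adjusted p 0.00332) against it. For snoRNA:Psi28S-3316d the values against WG2 were -1.55 (adjusted p 0.0365) and 1.51 (adjusted p 0.0154).

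The sexes were compared to ask whether the allele difference depends on sex. All 60 called genes had the same sign in females and in males, but they were called from these same libraries with both sexes in the fit. Their shared sign was thus largely set by the selection and does not answer the question. Within females alone 13 genes were called (0.0976%) and within males alone 37 (0.278%). For the test of the difference between the sexes edgeR called 0 of 13318 genes. DESeq2 likewise called 0, and 985 genes had an unadjusted p under 0.05. Leaving out W422X male replicate 2 gave 1 call. For CtsL2 the log2 fold change was 1.96 in females and 2.43 in males, and for snoRNA:Psi28S-3436a -2.11 and -2.58.

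Week 3 brains of the same lines, with no library in common, were used to see which differences recurred. Of 15413 genes 10 were called (0.0649%), 5 in each direction, and all 10 were among the 60 of week 0 with the same sign, which is 16.7% of the week 0 calls and 100% of those at week 3. These 10 were Naglu, bib, lncRNA:CR13130, CG8401, Gr58b, Spn27A and 4 snoRNAs (snoRNA:Psi28S-3436a, snoRNA:Psi28S-1175a, snoRNA:Psi28S-1175b and snoRNA:Psi28S-3316d). Naglu stood at 7.92 ± 0.93 CPM in W422X and 22.5 ± 2.65 CPM in Y160C at week 3 (-1.57 ± 0.09, adjusted p 5.24e-06). Gr58b was at 2.21 ± 0.34 (adjusted p 0.0438) and bib at 1.31 ± 0.06 (adjusted p 1.66e-06). The highest WG2 library at week 3 had 12.47 CPM of Gr58b, beside a WG2 median of 0.54 CPM. CtsL2, at 0.73 ± 0.65, was not called (adjusted p 0.952). The week 3 count rested on single libraries, since it was 33 without W422X female replicate 1 of that age, of which 17 were week 0 calls, and 5 without any of 5 other libraries. DESeq2 called 39.

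Of the 60 genes 57 kept their sign at week 3. The 3 that did not were snoRNA:Psi18S-1377b, snoRNA:Psi18S-1377c and snoRNA:Psi18S-1377e, all in RpS7. The median over all pseudouridylation guides tested was -0.32 at week 0 and 0.20 at week 3. Over all genes tested at each age the median was -0.03 at week 0 and -0.07 at week 3. The test of the difference between ages called 1 of 15468 genes (0.00646%), snoRNA:Psi18S-1377c, and 241 had an unadjusted p under 0.05. At week 0 it had 2.81 to 6.15 CPM in W422X and 7.72 to 12.6 in Y160C (-1.24 ± 0.12, adjusted p 6.53e-05), with no overlap. At week 3 the levels were higher and overlapped, at 13.6 to 25.97 CPM in W422X and 11.1 to 24.4 in Y160C (0.21 ± 0.17, adjusted p 0.952). WG2 moved from 4.49 ± 0.88 to 25.4 ± 4.11 CPM between the ages.

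**Figure D4:**
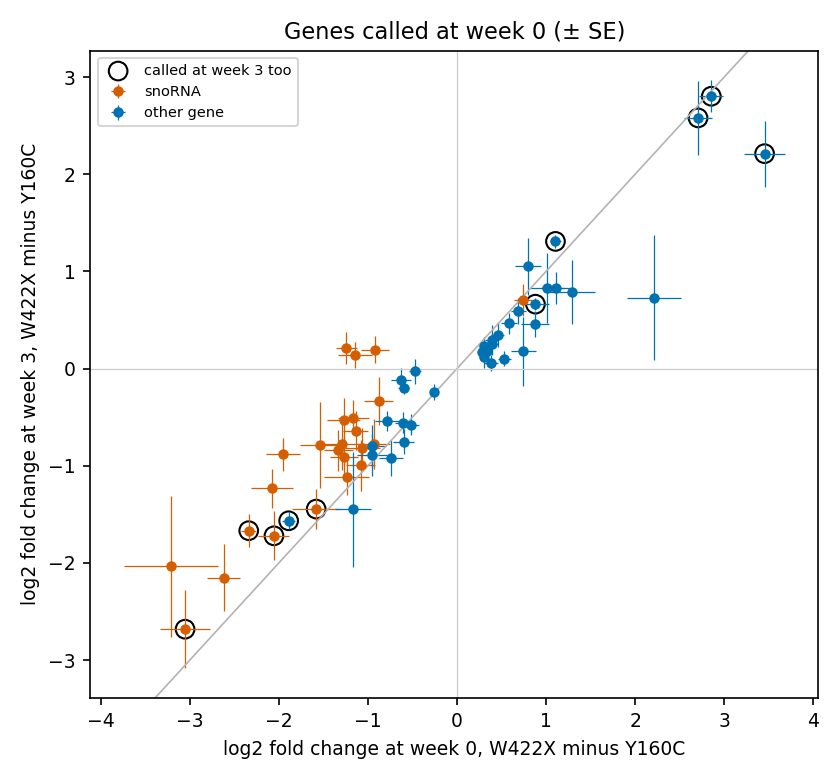
Log2 fold change of W422X minus Y160C at week 3 (vertical axis) against that at week 0 (horizontal axis) for the 60 genes called at week 0, with SE bars, snoRNAs in orange, other genes in blue and the line of equal values in grey. Rings mark the 10 genes called at week 3 too, and the 3 snoRNAs above 0 at week 3 and below 0 at week 0 lie in RpS7.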

How the data were processed

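RNA of 20 brains per library was sequenced after ribosomal RNA depletion. The deposited table holds unnormalised counts of reads for every gene and library, and these counts were used unchanged. The submitters' processing notes name Subread. Aligner, build, strand setting and the treatment of reads that match several genes are not given in the sources used here, and counts of similar snoRNAs (such as those with the same name and another final letter) are uncertain. Of 17490 gene identifiers, 17288 matched BDGP6.54, the source of symbols and positions.

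The main test was that of edgeR 4.0.16 in R 4.3.3 (filterByExpr with a minimum count of 10 and a minimum total of 15, TMM, robust glmQLFit, 9 residual degrees of freedom). DESeq2 1.42.0 and limma 3.58.1 were alternatives. The week 0 fit held the 12 compared libraries with sex and genotype as terms. Week 3 was fitted alike on its own 12 libraries, the interaction with age on all 24, and the comparisons with WG2 on the 24 libraries of week 0. CPM were taken over all 48 libraries. Simulated data with known changes were used to test this step. Their counts were drawn independently for each gene, so they do not cover differences that many genes share between libraries.

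The comparison, the 29 gene lists and the tests were chosen with earlier results of these data known. Genes named were Naglu and the heparan sulfate degradation list, the 12 highest and 12 lowest called genes with a mean of at least 1 CPM and 1 sign in both sexes, up to 2 called genes per list, called genes within 1 Mb of Naglu, and up to 5 for each interaction. Others (LBR, cher, mthl8, Uhg2, Orcokinin and further snoRNAs) were named after their values were seen.

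Replicate numbers in the titles did not pair the libraries, since residuals of same-numbered libraries correlated at -0.374 to 0.47 over 6 pairs. For the numbers in the sample descriptions the correlations were all above 0, at 0.171, 0.554, 0.41 and 0.547 over 4 pairs within a sex. Whether these numbers mark a shared batch was not tested. In the fit each number was a term that joined all libraries with that number, of both sexes, and correlations between the sexes were not examined. Numbers 1 and 4 occur in a single genotype, so numbers 2 and 3 carry that pairing. The genotype difference under it thus rests on fewer libraries than in the main fit.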

Additional observations from a re-analysis of the deposited data

Results flagged for a closer look

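The difference of snoRNA:Psi18S-1377c between W422X and Y160C was more positive at week 3 than at week 0 by 1.499 ± 0.24 on the log2 scale (edgeR's quasi-likelihood interaction test, adjusted p 0.0359, 24 libraries). It stood out because the test of the difference between ages called it. Its mean was 4.32 CPM in W422X and 9.93 CPM in Y160C at week 0, and 22.4 and 18.5 CPM at week 3. The call ended with the title numbers as a replicate block and when any of 14 of the 24 libraries was left out.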

How the results depend on the processing

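The week 0 count of 60 became 99 with DESeq2 (which held all 60), 27 with the description-number pairing, 18 without the 3 libraries with high signal on low genes and 20 with the phototransduction covariate, and these last 2 settings were chosen after seeing the data. It stayed between 43 and 73 in the other settings (RLE factors, scaling without structural RNA, limma-voom, no filter or a filter of 1 CPM, 24 or 48 libraries, no sex term, 4 group means, robust=FALSE, and the low-gene covariate, which was also chosen after seeing the data). It was 68 with the title numbers as a replicate block and 44 to 65 when each library was left out in turn. The week 3 count of 10 became 39 with DESeq2, 5 with the replicate block and 5 to 33 when a library was left out. For genotype by sex the count of 0 became 0 to 1 and was 0 with the replicate block. For genotype by age the count of 1 became 4 with DESeq2, 0 with the replicate block and 0 to 3 when a library was left out. The cause of these changes was not tested. No called gene changed sign in up to 28 alternatives, which was largely set by the selection, since these share the libraries of the main fit. Several snoRNAs had under 3 CPM, and each sex and genotype had 3 libraries, which limits the precision.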
